A study of Homo sapiens with 3 samples.

Results

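The expression of 10 genes of transforming growth factor beta (TGF-β) signalling and of its relative, bone morphogenetic protein (BMP) signalling, was followed in PANC-1 cells. They are the ligands TGFB1, TGFB2 and BMP2, the receptors TGFBR1 and TGFBR2, the signal transducer SMAD3, its inhibitor SMAD7, and the target genes ID1, ID2 and ID3. They were chosen by gene symbol for their roles, and each matched 1 of the 51136 genes of the count table. PANC-1 is an established human pancreatic carcinoma line, and RNA-seq was done on 3 libraries of it, 1 for each condition. The control library came from cells whose label gives no agent, the Rg3 library from cells treated with 200 µM Ginsenoside Rg3, a saponin of ginseng, for 24 h, and the TAM library from cells treated with 50 µM tamoxifen, a modulator of the estrogen receptor, for 24 h. Whether the control cells received the solvent is not given in the sources used here. All 3 cultures were grown in serum-containing medium, and the labels name no added TGF-β or BMP.

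TGF-β ligands are secreted in a latent form and, once released, bind the type II receptor TGFBR2, which recruits and phosphorylates the type I receptor TGFBR1. TGFBR1 phosphorylates SMAD2 and SMAD3, which enter the nucleus with the shared partner SMAD4, while SMAD7 holds the receptors in check. BMPs act in the same way through SMAD1, SMAD5 and SMAD9, and ID1, ID2 and ID3 are their best-known direct targets, encoding proteins that capture E proteins and keep them off DNA. SMAD4 is often lost in pancreatic carcinoma, but its transcript was present here. Reads on SMAD4 numbered 193 in the control library, 327 in Rg3 and 131 in TAM.

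The sequence just before the starts of the ID genes is shown first. ID1 lies on chromosome 20 at chr20:31605283-31606515 on the plus strand, ID2 on chromosome 2 at chr2:8678845-8684453 on the plus strand and ID3 on chromosome 1 at chr1:23557918-23559794 on the minus strand (GRCh38, GENCODE 29). In RefSeq (GRCh38.p14), the 250 bases before the ID1 start span chr20:31605039-31605288, and all but the last 6 of them lie outside annotated exons. They are printed 5′ to 3′ on the strand of the gene, with capitals for an inverted CCAAT box (ATTGG) and for a TATAA element.
ID1 upstream: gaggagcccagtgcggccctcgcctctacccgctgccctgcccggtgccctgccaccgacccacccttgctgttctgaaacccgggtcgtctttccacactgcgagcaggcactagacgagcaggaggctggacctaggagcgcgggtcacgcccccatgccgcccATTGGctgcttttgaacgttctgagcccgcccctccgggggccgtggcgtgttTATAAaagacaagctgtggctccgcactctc
The core promoters of the ID genes, the 30 bases from position -40 to position -11 before the start, are shown together so that they can be compared. Annotated exons on either strand cover 229 of the 250 bases before the ID2 start and all 250 before the ID3 start. Each core holds the letters ATAA, capitalised below.
ID1 core: tggcgtgtttATAAaagacaagctgtggct
ID2 core: gcgagtgcggATAAaagccgccccgccggg
ID3 core: caggcaggctctATAAgtgaccgccgcggc
The first A of ATAA stands at -30 in ID1, at -30 in ID2 and at -28 in ID3. These stretches lie at chr20:31605249-31605278, chr2:8682016-8682045 and chr1:23559512-23559541, the last read on the minus strand. ATAA occurs in the same stretch, on the gene's strand, in 9.25% of the 35116 RefSeq promoters. It is not a trait of the ID genes alone, since it also occurs before the start of TGFB2, at -28, before 2 of 3 starts of SMAD7 and before 1 of 5 of SMAD3. It was not found before the starts of TGFB1, TGFBR1 and TGFBR2. The longer TATAA, which 13.6% of all promoters hold in their 250 bases on the gene's strand, is absent from that window of ID2. The palindromic SMAD-binding element, GTCTAGAC, was searched on both strands of the 250 bases before each start that RefSeq lists for the genes here and was found in none of them, against 0.182% of all promoters. The shorter SMAD-binding letters CAGAC, searched likewise, occur in the windows of ID3 and TGFB2 and of some of the several starts of TGFBR1, SMAD3 and SMAD7, and not in those of ID1, ID2, TGFB1 or TGFBR2, against 38.0% of all promoters. GGCGCC, the core of a GC-rich element bound by BMP SMADs, was found on neither strand in the windows of the ID genes and occurs at 1 of the listed starts each of SMAD3 and TGFBR1, against 16.4% of all promoters. These matches describe the letters in the windows and say nothing of binding.

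Depth was alike, with 11300766 counts on genes in control, 12861693 in Rg3 and 11321442 in TAM, so that 1 read was worth between 0.0694 and 0.100 CPM (counts scaled to the library size with TMM factors), and a count of 0 allows up to 3 counts. Each level below carries an exact 95% interval for a Poisson count. Fold changes and shares carry exact 95% intervals by Clopper-Pearson, and all of these cover counting error only. Of 7 markers listed for an epithelial carcinoma line, none was at 0 in any library. They summed to 7214 CPM in control, 3851 in Rg3 and 7049 in TAM. VIM, also listed among TGF-β target genes, made up most of each sum, with 4814, 2763 and 4225 CPM. KRT8 (15329, 7817 and 14411 counts) and KRT18 (11216, 7406 and 13162) followed. CDH1 had 76, 39 and 5 counts, EPCAM 26, 26 and 8, KRT19 665, 290 and 181 and KRT7 248, 93 and 345. All 6 acinar and islet markers were at 0 in every library. Fibroblast and stellate cell markers summed to between 77.2 and 181 CPM, most of it COL1A1 and COL3A1, and FAP was at 0 in every library. Endothelial markers summed to between 3.96 and 5.53 CPM, with CDH5 at 0 throughout. Leukocyte markers summed to 62.0 CPM in control, 32.8 in Rg3 and 114 in TAM, with CD3E and LYZ at 0 in every library. The part of these markers in the results was not tested.

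In control cells, ID1 and ID3 were the most abundant of the genes and BMP2 the least. Levels of different genes are compared per kilobase of the longest annotated transcript. On that scale the control library held 252 CPM per kb of ID1 and 210 of ID3, with intervals that did not overlap (244 to 261 and 202 to 218). SMAD3 followed with 79.1 CPM per kb. TGFBR2 and TGFB1 came next at 14.7 and 14.3 CPM per kb, and their intervals overlapped, so that their order was not resolved. ID2 stood at 8.32 CPM per kb, far under the other ID genes. TGFBR1 and TGFB2, at 4.18 and 3.57 CPM per kb, also overlapped in their intervals, SMAD7 stood at 2.58 and BMP2 at 0.193.

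With TAM the order of the genes was rearranged below ID1, ID3 and SMAD3. ID1 reached 590 CPM per kb and ID3 488, and SMAD3 stayed next at 51.5 CPM per kb. TGFB1 (26.4 CPM per kb) and ID2 (23.2), whose intervals overlapped, passed TGFBR2 (9.44). SMAD7 (4.65 CPM per kb) passed TGFBR1 (1.62) and TGFB2 (1.23), which also overlapped. In the Rg3 library ID1 stood at 182 CPM per kb, ID3 at 120 and SMAD3 at 48.1, followed by TGFBR2 at 19.4. ID2 (12.6 CPM per kb) and TGFB1 (11.4) overlapped in their intervals there, as did TGFBR1 (4.32) and TGFB2 (4.07). BMP2 was last in each of the 3 libraries.

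**Figure D1:**
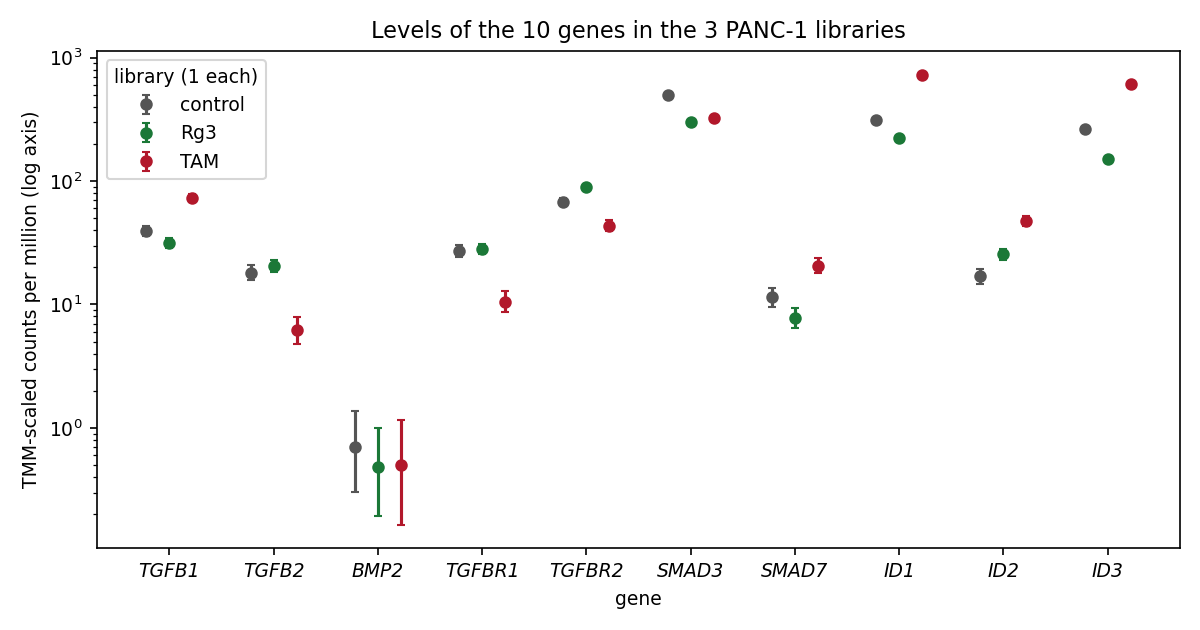
Levels of the 10 genes in each library, in CPM on a log axis, with 1 point a library and bars for the 95% interval of counting error. ID1, ID3 and SMAD3 lie highest, between 151 and 728 CPM, and BMP2 does not exceed 1.37 CPM even at the upper end of its intervals.

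BMP2, a secreted ligand of the BMP branch, was close to the limit of detection in these cells. It had 8 counts in control, 7 in Rg3 and 5 in TAM, or 0.697, 0.486 and 0.502 CPM. The intervals of the 3 libraries overlapped, and no difference was detectable at this depth. BMP2 had under 10 counts in every library and was therefore not compared, which left 9 of the 10 genes.

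In the TAM library all 9 compared genes passed the limits for a call, 5 higher and 4 lower than in control. A call needs a fold over 1.5 or under 0.67 and an adjusted p under 0.05 in an exact binomial test (two-sided) of the reads in both libraries, adjusted by Benjamini-Hochberg over the 16079 genes compared. By the same rule 14.0% of all genes compared were called higher and 18.4% lower. The median log2 fold change of the 9 genes was 0.85, and that of all genes was -0.02. ID1, ID2, ID3, SMAD7 and TGFB1 rose, and TGFB2, TGFBR1, TGFBR2 and SMAD3 fell. As RNA came from whole cultures, a different amount of RNA per cell and a different share of cells that express a gene cannot be told apart.

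In the Rg3 library 3 of the 9 genes were called. ID2 rose and SMAD3 and ID3 fell, and the other 6 were not called. Among the 16487 genes compared, 20.5% were called higher and 15.8% lower. The 9 genes had a median log2 fold change of -0.33, beside 0.04 for all genes. With 1 library per condition these calls compare libraries and not conditions, and variation between cultures was not measured. When a biological coefficient of variation of 0.2 was assumed with edgeR's exact test, none of the 9 genes (0) were called in Rg3, and with TAM ID2 alone was called higher and TGFB2 alone lower.

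Fold changes in these libraries moved with the base composition of transcripts, which bears on the genes because they differ in it. Across genes with at least 50 counts, which are not independent of each other, the change with Rg3 had a Spearman's rho with GC content of -0.81 (11583 genes), and that with TAM had a rho of 0.51 (11022 genes). TGFB2 and TGFBR1 are poor in GC, with 38.9% and 39.0% in their longest transcripts. TGFB1 has 63.5%, SMAD7 58.7%, ID1 58.6%, ID3 57.2% and ID2 53.3%, so that each of the 5 genes that rose with TAM is richer in GC than each of the 4 that fell. SMAD3 (50.4%), TGFBR2 (47.4%) and BMP2 (52.1%) lie between.

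A smooth trend on GC content and transcript length was therefore also removed from the fold changes of all genes, and the value that results is given beside each of the 9 genes. With the trend removed, 4 of the 9 genes were called higher with TAM (ID1, ID2, ID3 and SMAD7) and 2 lower (TGFB2 and TGFBR1), beside 10.5% and 11.3% of the 14019 genes compared. The median of the 9 genes was then 0.49, and that of all genes 0.01. With Rg3, 1 gene was called higher (ID2) and 2 lower (SMAD3 and TGFBR1), beside 4.84% and 7.09% of 14279 genes. The median was -0.03 for the 9 genes and -0.01 for all genes. How much of the trend arose in the cells and how much in library preparation was not tested.

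**Figure D2:**
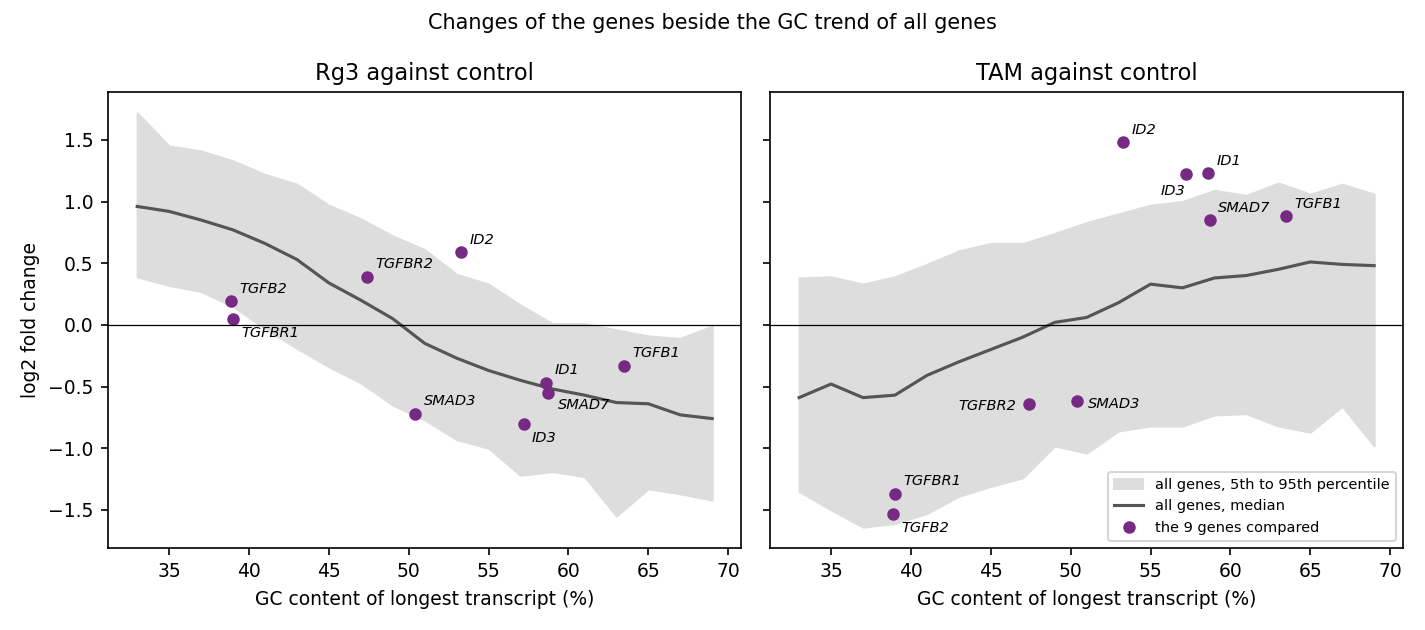
Log2 fold change of each compared gene (points) against the GC content of its longest transcript in %, for Rg3 (left) and TAM (right) against control. The line is the median of all genes and the band their 5th to 95th percentile in bins of GC content, and the ID genes lie above the median line with TAM while ID1 (-0.47) and SMAD7 (-0.55) lie close to it with Rg3.

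The ligands TGFB1 and TGFB2 went in opposite directions with TAM. TGFB1, which encodes the main TGF-β ligand of most tissues, had 456 counts in control, 455 in Rg3 and 728 in TAM, or 39.7, 31.6 and 73.1 CPM. Its level was highest in the TAM library and lowest in the Rg3 library. With TAM it rose 1.84-fold (log2 fold change 0.88, 95% interval 0.71 to 1.05), above 92.3% of all genes compared. With the GC and length trend removed the value was 0.49, under the limit for a call.
With Rg3 the log2 fold change of TGFB1 was -0.33 (-0.52 to -0.14), which was not called, and 0.34 with the trend removed. Exons of TGFB1 (chr19:41301587-41353911, minus strand) overlap those of HNRNPUL1 on the opposite strand. HNRNPUL1 had between 2657 and 2974 counts, and reads of the 2 genes could not be told apart if strand was not used in counting.

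TGFB2, the second ligand of the cells, had 207 counts in control, 296 in Rg3 and 62 in TAM, or 18.0, 20.6 and 6.23 CPM. The TAM library stood apart as the low one, and its interval (4.78 to 7.99 CPM) did not meet those of the other libraries. TGFB2 fell by 1.53 on the log2 scale with TAM (-1.97 to -1.12), a 2.89-fold decrease, and the value was -0.93 with the trend removed, still a call. With Rg3 the log2 fold change was 0.19 (-0.07 to 0.45), and -0.57 with the trend removed, neither of which was called. TGFB2 lies at chr1:218346235-218444619 on the plus strand, and 26.4% of the 50-base stretches of its transcripts recur in TGFB2-OT1, a transcript of the same locus with 15, 27 and 4 counts, so that reads could be split between the pair.

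Within a library, the share of a gene among a pair does not depend on scaling between libraries, but it still carries the GC and length trend. TGFB2 made up 31.2% of the reads on TGFB1 and TGFB2 in control (27.7 to 34.9%), 39.4% in Rg3 (35.9 to 43.0%) and 7.85% in TAM (6.07 to 9.95%). The TAM library was the outlying one, with TGFB1 at 92.2% of the reads. With the trend removed, the log2 fold changes of TGFB1 and TGFB2 with TAM were 0.49 and -0.93, the same direction as the shares. With Rg3 they were 0.34 and -0.57, opposite to the rise in the share of TGFB2.

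Both TGF-β receptors fell with TAM, and TGFBR1 fell further. TGFBR1, the type I receptor kinase, had 313 counts in control, 405 in Rg3 and 105 in TAM, or 27.3, 28.1 and 10.5 CPM. Control and Rg3 had nearly the same level, and TAM was well under both. The decrease with TAM was 2.58-fold (log2 fold change -1.37, -1.70 to -1.05), and -0.63 remained with the trend removed, past the limit for a call. With Rg3 the value was 0.05 (-0.17 to 0.26) without correction and -0.70 (-0.92 to -0.49) with the trend removed. The trend of all genes at the GC content and length of TGFBR1 was 0.75 with Rg3, so that the call lower exists only with that correction.

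TGFBR2, the type II receptor that binds the ligand first, had 782 counts in control, 1288 in Rg3 and 434 in TAM, or 68.1, 89.4 and 43.6 CPM. Its level was highest with Rg3 and lowest with TAM, with no overlap of the 3 intervals. With TAM it fell 1.56-fold (log2 fold change -0.64, -0.82 to -0.47), close to the limit, and the call was lost with the trend removed (-0.42). With Rg3 the log2 fold change was 0.39 (0.26 to 0.52), which did not reach the fold limit, and 0.24 with the trend removed. TGFBR1 made up 28.6% of the reads on the 2 receptor genes in control (25.9 to 31.4%), 23.9% in Rg3 (21.9 to 26.0%) and 19.5% in TAM (16.2 to 23.1%). These shares are not corrected for the trend. With the trend removed, the log2 fold changes of TGFBR1 and TGFBR2 lay closer together with TAM (-0.63 and -0.42) and further apart with Rg3 (-0.70 and 0.24). TGFBR1 lies at chr9:99104038-99154192 and TGFBR2 at chr3:30606502-30694142, both on the plus strand, and no 50-base stretch of either recurs in another annotated gene.

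SMAD3, the transducer that TGFBR1 phosphorylates, was lower in both treated libraries. It had 5671 counts in control, 4324 in Rg3 and 3204 in TAM, or 494, 300 and 322 CPM. The treated libraries lay near each other and well under control. SMAD3 fell 1.64-fold with Rg3 (log2 fold change -0.72, -0.78 to -0.66), and the value was -0.66 with the trend removed, still a call. With TAM it fell 1.53-fold (log2 fold change -0.62, -0.68 to -0.55), and the value with the trend removed, -0.34, was not called. The 2 comparisons share the control library, so that an error in its SMAD3 count would move both in the same direction. SMAD3 spans chr15:67063763-67195195 on the plus strand, and its exons overlap those of AC087482.1 on the opposite strand.

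SMAD7, the inhibitory SMAD that TGF-β itself induces and that brings ubiquitin ligases to the receptor, moved opposite to SMAD3 with TAM. It had 131 counts in control, 112 in Rg3 and 205 in TAM, or 11.4, 7.78 and 20.6 CPM. The TAM level was the highest of the 3, and the intervals of the control and Rg3 libraries did not overlap but lay close (9.54 to 13.5 and 6.40 to 9.36 CPM). SMAD7 rose 1.81-fold with TAM (log2 fold change 0.85, 0.53 to 1.18), and 0.71 with the trend removed was also called. With Rg3 the log2 fold change was -0.55 (-0.93 to -0.18), just short of the fold limit, and -0.03 with the trend removed. The gene lies at chr18:48919853-48952052 on the minus strand. Of the reads on SMAD3 and SMAD7, SMAD7 took 2.26% in control (1.89 to 2.67%), 2.52% in Rg3 (2.08 to 3.03%) and 6.01% in TAM (5.24 to 6.86%).

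**Figure D3:**
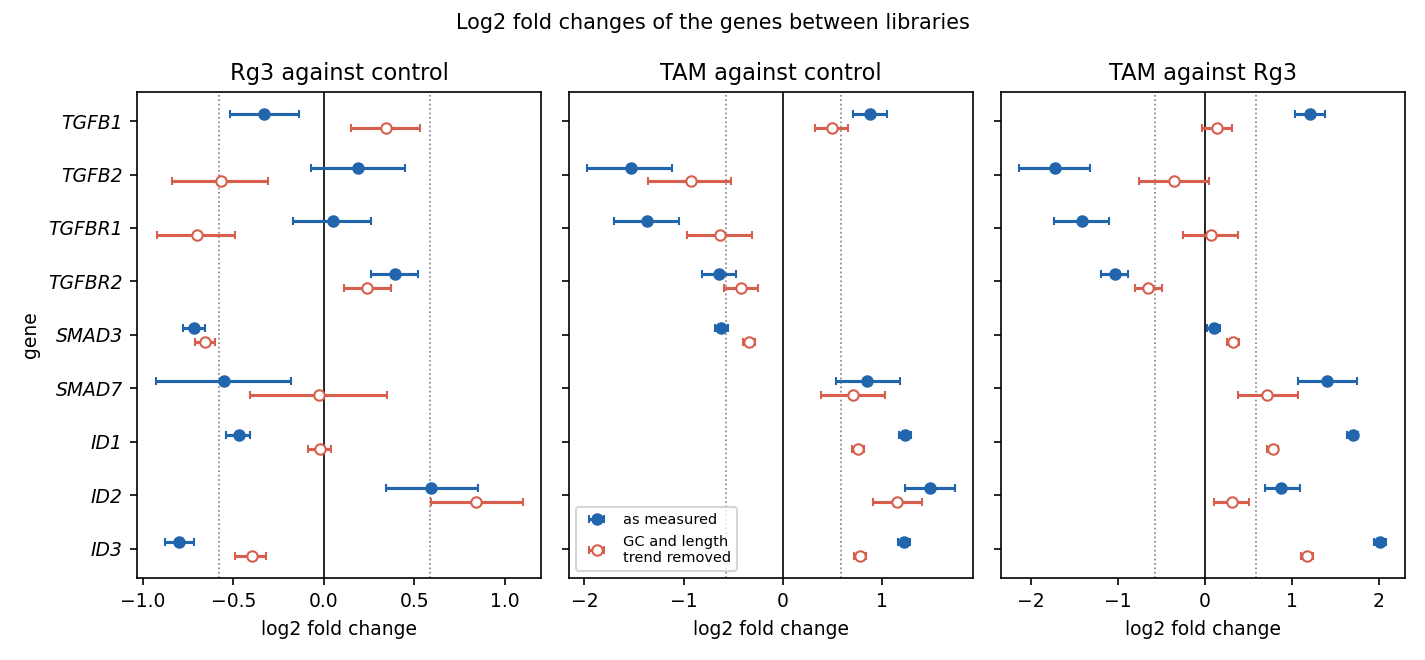
Log2 fold changes of the 9 compared genes, as computed and with the GC and length trend removed, with bars for the 95% interval of counting error and dotted lines at the fold limits. With TAM the ID genes and SMAD7 stay to the right of 0 under both, from 0.71 to 1.48, and TGFB2 and TGFBR1 stay to the left.

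ID1, ID2 and ID3 all rose with TAM, by similar factors. ID1 had 3570 counts in control, 3223 in Rg3 and 7246 in TAM, or 311, 224 and 728 CPM. ID3 had 3015, 2170 and 6082 counts, or 263, 151 and 611 CPM. Both genes were highest with TAM and lowest with Rg3, and the intervals of the 3 libraries did not overlap for either.
With TAM, ID1 rose 2.34-fold (log2 fold change 1.23, 1.17 to 1.29) and ID3 rose 2.33-fold (1.22, 1.16 to 1.28). Their values with the trend removed were also near each other, at 0.76 for ID1 and 0.78 for ID3, and both were called. Each log2 fold change lay above that of 96.9% of all genes compared. With Rg3 they parted: ID3 fell 1.74-fold (log2 fold change -0.80, -0.88 to -0.72), while ID1, with -0.47 (-0.54 to -0.41), was not called. With the trend removed neither was called with Rg3, at -0.40 for ID3 and -0.02 for ID1.

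ID2 differed from the other ID genes in level and in its response to Rg3. It had 195 counts in control, 369 in Rg3 and 471 in TAM, or 17.0, 25.6 and 47.3 CPM. Control was the lowest library and TAM the highest, with no overlap of intervals. ID2 rose 2.79-fold with TAM (log2 fold change 1.48, 1.23 to 1.73), above 98.1% of all genes compared, and the value was 1.15 with the trend removed. With Rg3 it rose 1.51-fold (0.59, 0.34 to 0.85), just past the fold limit, and 0.84 with the trend removed was further past it. ID2 was called higher in both treated libraries with and without the correction, with the control library shared between the comparisons. ID2-AS1, on the opposite strand, had 3, 8 and 6 counts.

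The shares of the ID genes among their summed reads describe the same pattern without scaling. ID1 took 52.7% in control (51.5 to 53.8%), 55.9% in Rg3 (54.6 to 57.2%) and 52.5% in TAM (51.7 to 53.3%). ID2 took 2.88% in control (2.49 to 3.30%), 6.40% in Rg3 (5.79 to 7.07%) and 3.41% in TAM (3.12 to 3.73%). ID3 took 44.5%, 37.7% and 44.1%. Control and TAM thus had nearly the same make-up at different totals, 6780 and 13799 reads, and Rg3 held more of ID2 and less of ID3 among 5762 reads. ID4, the remaining member of the family, had 1, 2 and 2 counts.

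**Figure D4:**
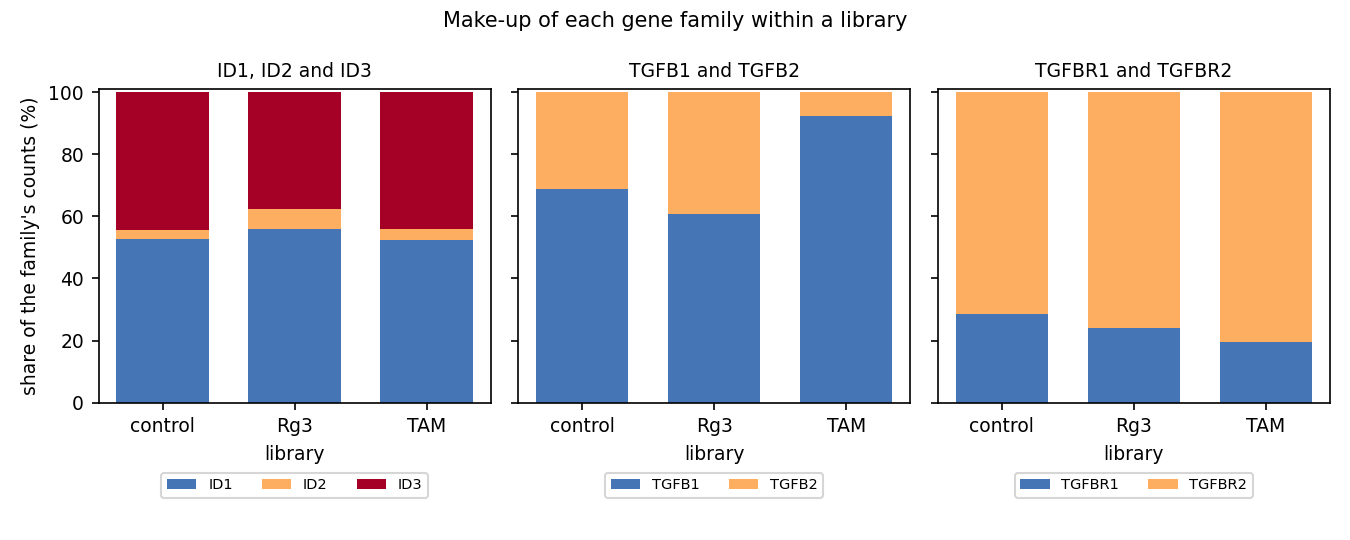
Share in % of the reads on ID1, ID2 and ID3 (left), TGFB1 and TGFB2 (centre) and the receptor genes (right) that each gene took in each library. TGFB2 shrinks to 7.85% of the ligand reads with TAM, and ID2 is widest in Rg3 at 6.40% of the ID reads. The shares are not corrected for the GC and length trend.

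The E proteins, the partners that ID proteins capture, differed among themselves. TCF3 had 1214 counts in control, 804 in Rg3 and 1244 in TAM, and TCF12 had 324, 741 and 170. TCF3 fell with Rg3 (log2 fold change -0.92, -1.05 to -0.79) and had a value of 0.24 with TAM that was not called, while TCF12 rose with Rg3 (0.87, 0.68 to 1.06) and fell with TAM (-0.72, -1.0 to -0.45). None of these calls remained with the trend removed. TCF4 had 13, 13 and 5 counts, with log2 fold changes of -0.33 and -1.17 that were not called. The reads on ID1, ID2 and ID3 came to 4.37 times those on the 3 E protein genes in control, 3.70 times in Rg3 and 9.72 times in TAM, as ratios of counts within a library that are not corrected for gene length.

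Compared directly, TAM and Rg3 differed in 8 of the 9 genes. ID1, ID2, ID3, SMAD7 and TGFB1 were higher with TAM, TGFB2, TGFBR1 and TGFBR2 were lower, and SMAD3, with a log2 difference of 0.10 (0.03 to 0.17), was not called. This comparison is the widest of the 3, since 27.0% of the 16493 genes compared were called higher in TAM than in Rg3 and 31.0% lower. The log2 difference was 2.02 (1.95 to 2.09) for ID3 and 1.70 (1.64 to 1.76) for ID1. It was -1.72 for TGFB2, -1.41 for TGFBR1 and -1.04 for TGFBR2. The median was 0.88 for the 9 genes, and -0.08 for all genes. The compounds were given at different doses, 200 µM and 50 µM, so that these values stand side by side and do not rank the compounds.
With the trend removed, ID1 (0.78), ID3 (1.18) and SMAD7 (0.72) were called higher and TGFBR2 (-0.65) lower, beside 16.8% and 15.1% of 14269 genes. ID2 (0.31), TGFB1 (0.14) and TGFB2 (-0.35) were then not called, and TGFBR1 came to 0.07. The largest difference that remained was that of ID3.

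Beyond the 10 genes, 104 other genes of the pathway were listed in 7 groups by role, and 86 of them were compared with control. With Rg3, 11 (12.8%) were called higher and 25 (29.1%) lower, beside 20.5% and 15.8% of all genes, with a median log2 fold change of -0.25. In TAM 13 (15.1%) were called higher and 20 (23.3%) lower, beside 14.0% and 18.4% of all genes and also with a median of -0.25, so that these shares lay near those of all genes. Division by library totals gave 16 higher and 19 lower with Rg3, whereas TAM had 9 higher and 31 lower. That scaling moved the log2 fold changes of all genes, 0.14 up with Rg3 and 0.21 down with TAM. In edgeR's exact test with an assumed coefficient of variation of 0.2, 0 and 0 were called with Rg3 and 1 and 2 with TAM. The share of all genes called is not given for library totals or for this test. These counts therefore cannot be read as particular to the pathway. The counts with the trend removed were 5 higher and 10 lower in Rg3, or 5.81% and 11.6% beside 4.84% and 7.09% of all genes. In TAM they were 14 higher and 17 lower, or 16.3% and 19.8% beside 10.5% and 11.3%. SMAD6, SMAD9, SKIL, PMEPA1, NOG, BAMBI and LTBP2 stand in a pair of lists each and count once in these sums.

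BMP target genes other than ID1, ID2 and ID3 were called in 1 direction with TAM. Of 11 compared, 6 (54.5%) were called higher with TAM and 0 lower, beside 14.0% and 18.4% of all genes, with a median log2 fold change of 0.72. With the trend removed 4 (36.4%) remained, beside 10.5%. HEY1, a repressor that also responds to Notch, had 38, 46 and 98 counts in control, Rg3 and TAM, and rose by 1.57 (1.02 to 2.15). HES1, a related repressor, had 175, 170 and 370 counts and rose by 1.29 (1.02 to 1.55). In both, control and Rg3 lay together and TAM apart.
ATOH8, a helix-loop-helix factor, had 325, 218 and 599 counts and GATA2, a zinc finger factor, had 197, 126 and 367. On the log2 scale they rose by 1.09 and 1.10 with TAM and fell by 0.90 and 0.97 in the Rg3 library, the order of libraries seen for ID1 and ID3. Their values with TAM were 0.83 and 0.81 with the trend removed, both called, and those with Rg3, -0.52 and -0.41, were not called. NOG, which encodes the secreted BMP antagonist noggin, rose by 0.72 with TAM and fell by 0.76 with Rg3, and neither was called with the trend removed (0.26 and -0.23). The call of NOG with TAM was also lost on division by library totals (0.51). With a coefficient of variation of 0.2 assumed, the calls of HEY1, HES1, ATOH8 and NOG with TAM were all lost. With Rg3, 5 of the 11 (45.5%) were called lower and 0 higher, beside 15.8% and 20.5% of all genes, and 1 remained with the trend removed.

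TGF-β target genes were mixed with TAM. Of 26 compared, 5 (19.2%) were called higher and 9 (34.6%) lower, beside 14.0% and 18.4% of all genes, with a median log2 fold change of -0.24. The counts were also 5 and 9 with the trend removed, beside 10.5% and 11.3% of all genes. ANGPTL4, which encodes a secreted inhibitor of lipoprotein lipase, had 1367, 1480 and 4954 counts and rose by 2.06 (1.98 to 2.15). SNAI1, a repressor active in epithelial-mesenchymal transition, had 102, 78 and 205 counts and rose by 1.21 (0.86 to 1.57). ZEB1, another transcriptional repressor active in that transition, went the other way, with 127, 225 and 38 counts, and fell by 1.53 (-2.10 to -1.0). SKIL, a target that also inhibits SMADs, had 124, 226 and 42 counts and fell by 1.36, a call lost with the trend removed (-0.49).
With Rg3, 10 of the 26 (38.5%) were called lower and 0 higher, beside 15.8% and 20.5% of all genes, with a median of -0.32. Removal of the trend left 6 (23.1%) lower and 2 (7.69%) higher, beside 7.09% and 4.84%. MMP2, a gelatinase, had 2576, 1191 and 1603 counts and a log2 fold change of -1.44 in Rg3 (-1.54 to -1.34). COL1A1, a chain of collagen I, had 1853, 1005 and 734 counts, a log2 fold change of -1.21 in Rg3 (-1.32 to -1.10) and one of -1.13 in TAM, both called. Both were still called lower with Rg3 with the trend removed, at -0.99 and -0.59. COL1A1 is also among the fibroblast markers named above, whose summed level was lower in both treated libraries. CYR61, a matrix protein, had 9421, 7823 and 6121 counts and fell with Rg3 by 0.59, a call lost with the trend removed (-0.54) and on division by library totals (-0.45).

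**Figure D5:**
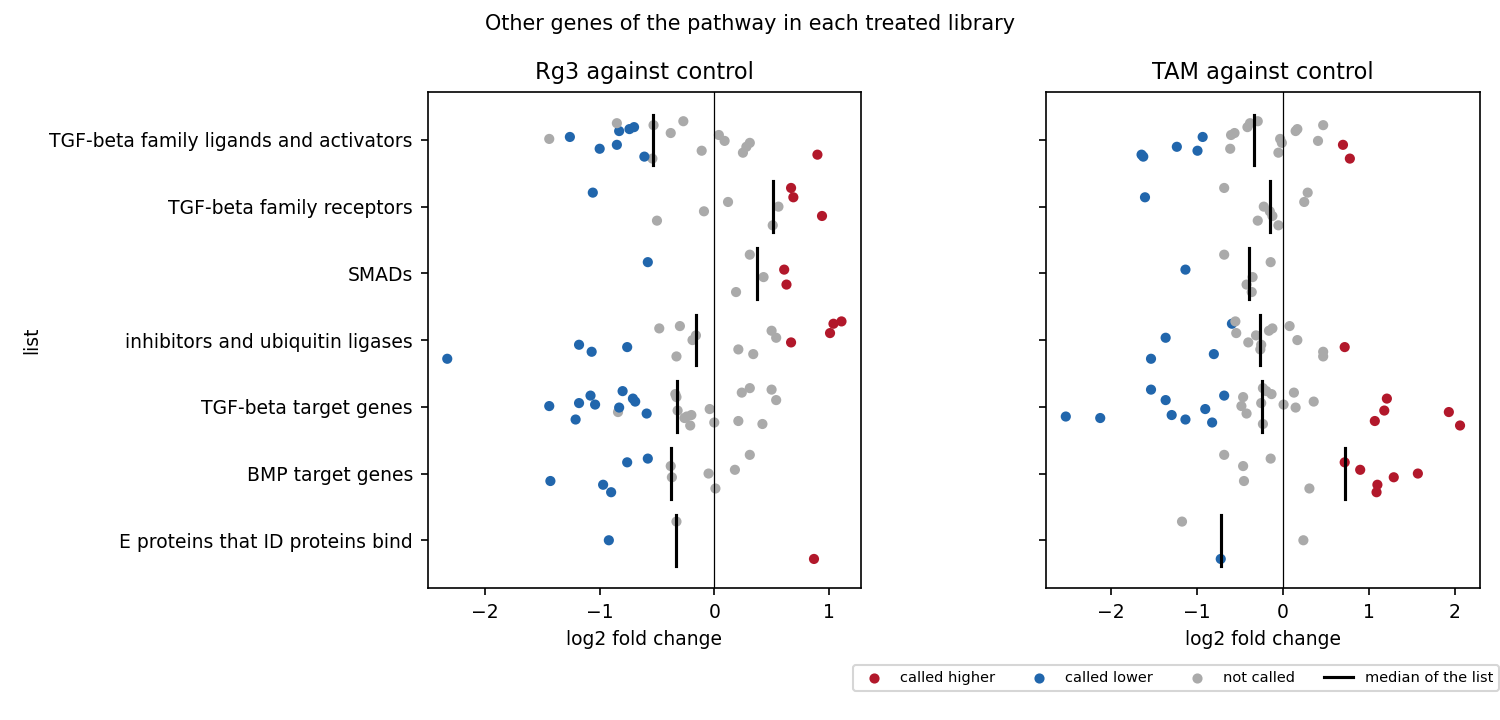
Log2 fold changes of the compared genes of 7 pathway lists for Rg3 (left) and TAM (right) against control, with 1 point a gene, coloured by call, and a bar for the median of the list. The BMP target genes have a median of 0.72 with TAM and -0.38 with Rg3.

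Of the other 6 SMADs, 2 were called higher and 1 lower with Rg3, whereas TAM had 1 call, lower. These are 33.3% and 16.7% with Rg3, against 20.5% and 15.8% of all genes. With TAM they are 0.00% and 16.7%, against 14.0% and 18.4%. SMAD2, the second transducer of TGF-β, had 342, 664 and 221 counts in control, Rg3 and TAM, and rose with Rg3 (0.63, 0.44 to 0.82), with -0.42 in TAM not called. SMAD5, a transducer of BMPs, had 372, 713 and 147 counts, rose with Rg3 (0.61) and fell with TAM (-1.13, -1.42 to -0.85). None of these 3 calls remained with the trend removed, where SMAD2 came to -0.10 with Rg3 and 0.66 with TAM, the latter a call in the other direction, and SMAD5 to -0.24 and -0.32. SMAD4 had log2 fold changes of 0.43 with Rg3 and -0.35 with TAM, SMAD1 of 0.19 and -0.36 and SMAD9 of 0.31 and -0.68, none of them called. With Rg3 all 3 were below 0 once the trend was removed (-0.16, -0.56 and -0.16), and with TAM SMAD4 came to 0.44, none of them called. SMAD6, the inhibitory SMAD of the BMP branch and itself a BMP target, fell with Rg3 (-0.58, -0.93 to -0.23), a call lost with the trend removed and on division by library totals (-0.44), and had -0.14 with TAM. Among the inhibitory SMADs, only SMAD7 was called higher with TAM, and the difference between SMAD6 and SMAD7 was not tested.

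Among the other receptors, 9 were compared, and 3 (33.3%) were called higher and 1 (11.1%) lower with Rg3, beside 20.5% and 15.8% of all genes. Removal of the trend left no receptor called with Rg3 (0 of 9), beside 4.84% of all genes higher and 7.09% lower. With TAM 3 (33.3%) were then called higher and 1 (11.1%) lower, beside 10.5% and 11.3%. BMPR2, the type II receptor of BMPs, had 405, 822 and 116 counts, rose with Rg3 (0.69) and fell with TAM (-1.60, -1.91 to -1.30), and the value with TAM was -0.62 with the trend removed, still a call. ACVR2A, an activin receptor, had 30, 72 and 24 counts and rose with Rg3 (0.94), and TGFBR3, the co-receptor betaglycan, had 35, 70 and 19 counts and rose with Rg3 (0.67). ENG, the co-receptor endoglin, had 538, 323 and 570 counts and fell with Rg3 (-1.06). BMPR2 was the 1 receptor of the list called with TAM before the trend was removed, beside TGFBR1 and TGFBR2. That is 11.1% of the list called lower, against 18.4% of all genes.

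Of 20 ligands and activators compared, 1 was called higher and 7 lower in the Rg3 library, and 2 higher and 5 lower in the TAM library. These are 5.00% and 35.0% with Rg3, against 20.5% and 15.8% of all genes, and 10.0% and 25.0% with TAM, against 14.0% and 18.4%. With the trend removed, 3 of the 20 were called higher and 2 lower with Rg3, against 4.84% and 7.09% of all genes. The larger number called lower with Rg3 was therefore not kept under that correction. In TAM 1 was then higher and 6 lower, against 10.5% and 11.3%. BMP4, a ligand that drives ID expression in many cells, had 170, 140 and 48 counts and fell with TAM by 1.62 (-2.11 to -1.15), and the value was -1.97 with the trend removed. It also fell with Rg3 (-0.61), a call lost with the trend removed (-0.32). BMP5, a related ligand, had 54, 126 and 15 counts, rose with Rg3 (0.90) and fell with TAM (-1.64). BMP1, a protease that frees latent TGF-β from the matrix, had 175, 151 and 261 counts and rose with TAM (0.78), and FURIN, which cleaves the TGF-β precursor, had 1840, 1283 and 2591 counts and rose with TAM (0.70). INHBB, a subunit of activin B, had 270, 141 and 123 counts and fell with Rg3 by 1.26. It was also called lower with TAM (-0.93, -1.25 to -0.62). BMP8A fell with Rg3 by 1.00 from 72 to 45 counts. The calls of BMP8A and BMP5 with Rg3 and of FURIN with TAM were lost with the trend removed. Those of INHBB with Rg3 (-0.81) and with TAM (-1.2) and of BMP1 and BMP5 with TAM were kept under that correction. On division by library totals the calls of BMP1 (0.57) and FURIN (0.49) with TAM and of BMP4 with Rg3 (-0.47) were lost.

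Of 17 inhibitors and ubiquitin ligases compared, 4 were called higher and 4 lower in the Rg3 library, and 1 higher and 4 lower in the TAM library. These are 23.5% and 23.5% with Rg3, against 20.5% and 15.8% of all genes, and 5.88% and 23.5% with TAM, against 14.0% and 18.4%. With the trend removed, 0 were higher and 2 (11.8%) lower with Rg3, against 4.84% and 7.09%. In TAM 0 were then higher and 1 (5.88%) lower, against 10.5% and 11.3%. WWP1, a ubiquitin ligase that acts on the TGF-β receptor, had 96, 260 and 57 counts and rose with Rg3 (1.11), and USP15, a deubiquitinase with the opposite action, had 97, 251 and 56 counts, rose with Rg3 (1.04) and fell with TAM (-0.59). PMEPA1, a target that restrains SMAD2 and SMAD3, had 960, 533 and 701 counts and fell with Rg3 (-1.18, -1.33 to -1.02), and the value of -0.89 with the trend removed was also called. FSTL3, which binds activins, had 350, 209 and 420 counts and fell with Rg3 by 1.07, and FSTL1 had 533, 849 and 265 counts and fell with TAM by 0.80. The calls of WWP1, USP15, FSTL3 and FSTL1 were lost with the trend removed.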

How the data were processed

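The authors sequenced total RNA of PANC-1 cells on the Ion Proton, examined reads with FAST-QC, aligned them with TopHat and assembled them with MAQ, and deposited raw counts, given by gene symbol for 51136 genes. Per the labels the build was GRCh38. The counting tool, annotation and use of strand are not given in the sources used here.

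Totals were 11300766 (control), 12861693 (Rg3) and 11321442 (TAM) counts, with TMM factors of 1.02, 1.12 and 0.879. A gene with 10 or more counts in either of 2 libraries was compared, in 3 comparisons, in Python 3.11.15 with scipy 1.17.1, edgeR 4.0.16, DESeq2 1.42.0 and R 4.3.3. The study's Limma criteria (fold and adjusted p) were kept as limits, but a Limma fit needs replicates, which are lacking, so an exact binomial test was used. No test measures variation between cultures. GC content and length came from the longest GENCODE 29 transcript of a gene, and the trend was a loess fit with span 0.3. RefSeq promoters were matched by symbol, with starts listed for every gene but BMP2. The binomial calls were tested on simulated libraries that held counting error alone. That test therefore did not cover variation between cultures, TMM scaling or the GC and length trend.

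All 10 genes are named whatever their values. In each list and treated library, the 2 called genes with the highest and the 2 with the lowest change among those with at least 50 counts are named, as are all SMADs and E proteins and the 3 genes nearest to ID1 and to TGFBR1 in their changes. The result of 1 gene that the rule names is not reported here. The genes and lists were chosen with earlier results of these data known. The alternatives were other scalings (library totals, DESeq2 size factors), count filters of 1 and 50, calls by fold alone, an exact test of edgeR in which the biological coefficient of variation was set to 0.2 or 0.4, and the trend removed.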

Additional observations from a re-analysis of the deposited data

How the results depend on the processing

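The counts of genes called against control depended most on the assumed spread between cultures. In edgeR's exact test with a coefficient of variation of 0.2, 0 of the 9 genes were called higher and 0 lower with Rg3, and 1 higher (ID2) and 1 lower (TGFB2) with TAM. Between TAM and Rg3, 4 were still called higher and 3 lower at that setting. The share of all genes called in this test is not given. At 0.4, the same test called 0 higher and 0 lower in each of the 3 comparisons. With the GC and length trend removed, 2 genes were lower with TAM, and 3 were higher and 1 lower in TAM than in Rg3. That correction also turned the sign of TGFB1 (0.34), TGFB2 (-0.57) and TGFBR1 (-0.70, called lower) with Rg3 and of TGFBR1 between TAM and Rg3 (0.07). Among the called changes of other named genes it turned BMP5 (-0.02), BMPR2 (-0.10), SMAD2 (-0.10) and SMAD5 (-0.24) with Rg3, and USP15 (0.47) with TAM. Division by library totals, which put log2 fold changes 0.14 higher with Rg3 and 0.21 lower with TAM than TMM scaling, turned SMAD3 between TAM and Rg3 (-0.25) and ended the call of ID2 there (0.54), and among other named genes it ended 7 calls and turned none. All 27 values of the 9 genes kept direction and call with DESeq2 size factors, with filters of 1 or 50 counts and with the fold alone.

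No paired analysis was possible because there is 1 library for each condition. No library was left out for the same reason. Depth limits BMP2, TCF4 and ID4, which had few counts in every library.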

Other observations

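Over the 2 treated libraries, the genes whose log2 fold changes lay nearest to those of ID1, among 8424 genes with at least 100 counts in every library, were MBD3, LOC148413 and COQ4. MBD3, a subunit of the NuRD complex, had 916 counts in control, 833 in Rg3 and 1882 in TAM, with log2 fold changes of -0.46 with Rg3 and 1.25 with TAM, beside -0.47 and 1.23 for ID1. LOC148413 had 298, 267 and 597 counts, and COQ4, a gene of coenzyme Q synthesis, had 151, 137 and 313. The Euclidean distances from ID1 were 0.0205, 0.0218 and 0.0312 on the log2 scale.

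Nearest to TGFBR1 were TANC2, UGDH and ATP2B4, at distances of 0.0218, 0.0623 and 0.0664. TANC2, which encodes a scaffold protein of synapses, had 517 counts in control, 679 in Rg3 and 173 in TAM, with log2 fold changes of 0.07 and -1.37, beside 0.05 and -1.37 for TGFBR1. UGDH, which makes the UDP-glucuronic acid needed for hyaluronan, had 954, 1281 and 313 counts, and ATP2B4, a calcium pump of the plasma membrane, had 870, 1171 and 285. A likeness over 2 changes that share a control library describes these libraries only. The distances use changes from which the GC and length trend was not removed. That trend came to -0.45 with Rg3 and 0.47 with TAM at ID1, and to 0.75 and -0.74 at TGFBR1. The part of GC content and length in the likeness was not tested.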
